A study of Canis lupus familiaris with 16 samples.

Results

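The genes described here are 46 canine genes of DNA replication and of the repair that accompanies it, out of 41818 genes counted. They were listed by what their products do, with earlier results of these data known. They fall into 5 roles. The first holds 15 genes that license replication origins and form the helicase, the second 11 genes that synthesize DNA at the fork, and the third 5 genes that supply nucleotides. The fourth holds 8 genes of recombination and crosslink repair, and the fifth 7 checkpoint, regulator and chromatin genes. At least 10 counts in at least 4 tumors were needed for a test, and 42 of the 46 members passed, among 15408 genes in all. Which genes passed could depend on their level in 1 type, since the smallest type had 4 tumors.

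RNA of 16 formalin-fixed, paraffin-embedded soft tissue sarcomas of pet dogs was sequenced, and reads on each gene were counted. By the molecular identity given in the labels, 4 tumors were fibrosarcomas (FS, dogs of 9 to 13 years), 6 were peripheral nerve sheath tumors (PNST, 8 to 13 years) and 6 were perivascular wall tumors (PWT, 2 to 14 years). Molecular identity was itself assigned from expression, and it differed from the histological diagnosis in S1-10 (PWT by histology, here PNST) and S2-08 (FS by histology, here PWT). The dogs were patients of several breeds rather than a model strain, some tumors were recurrent or had been treated before, and no normal tissue was analysed here. S1-04 and S1-05 carry identical entries and may come from 1 dog, so that the 6 PNST may stand for 5 dogs.

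Counts on genes ranged from 507728 (S1-12) to 4311876 (S1-03), and levels are given as CPM, the counts scaled to a common library total. A single count was worth 1.84 CPM in S1-12 and 0.284 CPM in S1-03, so low values in S1-12 are coarse. The summed perivascular list had a median of 512 CPM in PWT (357 to 675 CPM), 675 CPM in PNST (375 to 781 CPM) and 976 CPM in FS (570 to 1502 CPM). PWT thus had the lowest median, in overlapping ranges, and this list did not bear out their name. The names of 9 tumors begin with S1 and those of 7 with S2, a possible sequencing group, with 3 S1 tumors among the FS, 5 among the PNST and 1 among the PWT.

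Before DNA can be copied, the origin recognition complex, CDC6 and CDT1 load the MCM2-7 helicase onto origins in G1, and CDC45 and GINS then switch it on in S phase. At the fork, polymerase alpha with primase starts each strand, the RFC complex loads the PCNA clamp, polymerases delta and epsilon extend the strands, and FEN1 and LIG1 join the lagging-strand fragments. Many of these genes are transcribed by E2F factors at the G1/S boundary, which is why they are used as markers of dividing cells in tumors, beside the mitotic figures that pathologists count in sections.

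The whole set of 46 genes took between 0.0729% and 0.282% of the counts on genes. In the FS, it took 0.282% of counts in S2-06 (95% Wilson interval 0.274 to 0.290), 0.128% in S1-11 (0.123 to 0.132), 0.0926% in S1-12 (0.0846 to 0.101) and 0.0811% in S1-02 (0.0778 to 0.0845). In the PNST, the lowest, median and highest shares were 0.0758%, 0.0790% and 0.0866%, and in the PWT they were 0.0729%, 0.0946% and 0.125%. The intervals cover counting error only. S2-06 and S1-11 were the highest tumors, S2-08 (a PWT) came next, and S1-02 and S1-12 lay within the range of the other 12 tumors. The 6 PNST spanned less than the PWT or the FS. Since these are bulk tumors, a lower share of dividing cells and less of each RNA per cell cannot be told apart.

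**Figure D1:**
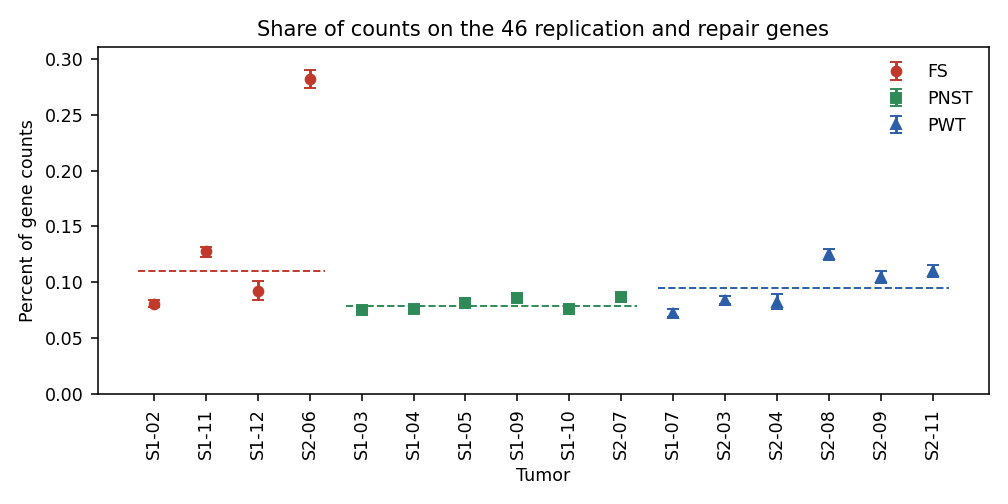
Percent of each tumor's gene counts that fell on the 46 replication and repair genes (y axis), by tumor and type (x axis). Points are tumors, bars are 95% Wilson intervals and dashed lines are medians of a type. S2-06 stands at 0.282%, more than any other tumor, and the PNST lie between 0.0758% and 0.0866%.

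S2-06 was the highest of the 16 tumors for 25 of the 42 members tested, and S1-11 for another 10. The 7 members that peaked elsewhere were *MCM7*, *GINS2*, *GINS3*, *LIG1*, *DUT*, *FANCI* and *BLM*, of which *MCM7*, *GINS3* and *LIG1* peaked in PNST and the other 4 in PWT. The 4 members that did not pass the filter were also concentrated in S2-06. Of their counts over all tumors, it held 49 of 121 for *ORC1*, the largest subunit of the origin recognition complex, 31 of 103 for *CDC45*, 37 of 123 for *RAD51AP1*, and 45 of 134 for *EXO1*, a 5′ exonuclease.

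The members rose and fell together only in part. Over the 16 tumors, which share normalization and differ in depth, the median Spearman's rho between pairs of members was 0.303, and 79.8% of pairs were above 0. For all pairs of the 15408 genes tested, the median was 0 and 50.1% were above 0. Without S2-06, the median between members was 0.196, with 72.5% of pairs above 0. Outside every list used here, the genes whose levels followed the mean z-score of the members most closely over the 16 tumors were *MIPOL1* (rho 0.844), *HNRNPK* (0.835), *UTP6* (0.821), *LOC119868890* (0.809) and *LIN9* (0.800).

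**Figure D2:**
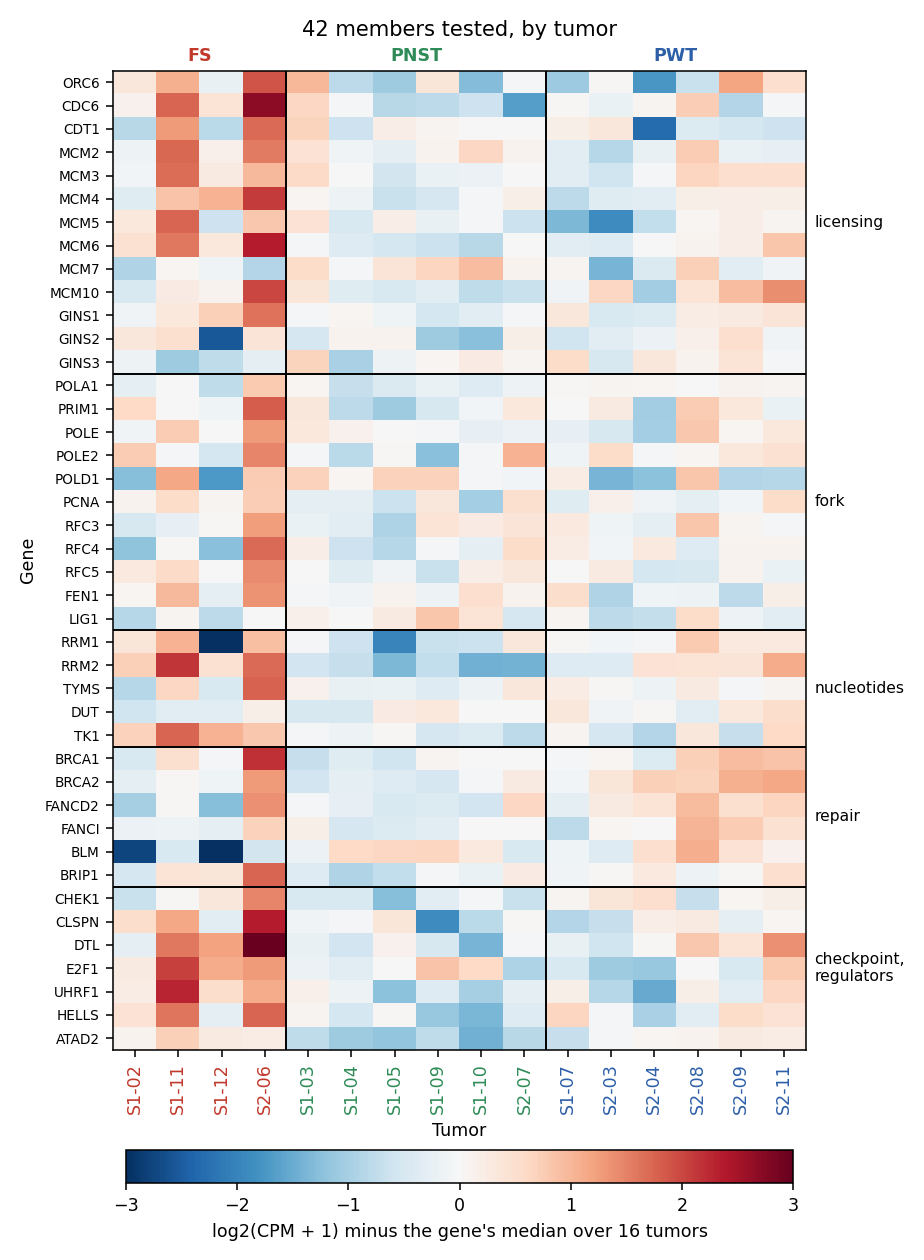
Each row is 1 of the 42 members tested and each column 1 tumor, with color giving log2(CPM + 1) minus the gene's median over the 16 tumors. Black lines part tumor types and roles. The columns of S2-06 and S1-11 are red in most rows, and the row of *BLM* is blue in S1-02 and S1-12.

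The first comparison was of each tumor type with both other types pooled. In FS, 11 of the 42 members tested were higher and 1 was lower than in the other 12 tumors (edgeR's quasi-likelihood test, with a Benjamini-Hochberg adjusted p under 0.05 and a log2 fold change past 1 in either direction). Over all genes tested, 5.78% were called higher and 3.68% lower in FS. The median log2 fold change was 0.78 for the members and 0.00 for all genes tested. Of the members called higher, 4 were licensing and helicase genes, 2 supplied nucleotides and 5 were checkpoint, regulator and chromatin genes. Of the 11 fork genes, 0 were called by edgeR or DESeq2, and 4 were higher at an unadjusted p under 0.05. The only call in repair was the lower one, by both tools.

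Fewer members were called higher when S2-06 or S1-11, 2 of the 4 FS, was left out. Without S2-06, 5 members were called higher (*MCM6*, *RRM2*, *TK1*, *E2F1* and *UHRF1*), beside 5.2% of all genes. The median log2 fold change of the members fell to 0.31. Without S1-11, 5 were called higher as well (*MCM6*, *MCM4*, *CDC6*, *CLSPN* and *DTL*), beside 3.61% of all genes. *MCM6* alone was in both sets. Without both, an alternative chosen after the values were seen, 0 of 41 members were called higher by edgeR (1 at an unadjusted p under 0.05), and the median was -0.04. Of all genes, 2.40% were called higher there. The number of members called higher was also 0 with the mitotic count as a term of the model, where 2.52% of all genes were called higher. It was 3 with the tumors grouped by histology (*CDC6*, *MCM6* and *TK1*), where 1.24% of all genes were. Within the S1 tumors, the median difference of log2(CPM + 1) between FS and the others was 0.36 over the members (3 FS against 6), and within the S2 tumors, where S2-06 was the only FS, it was 1.48.

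**Figure D3:**
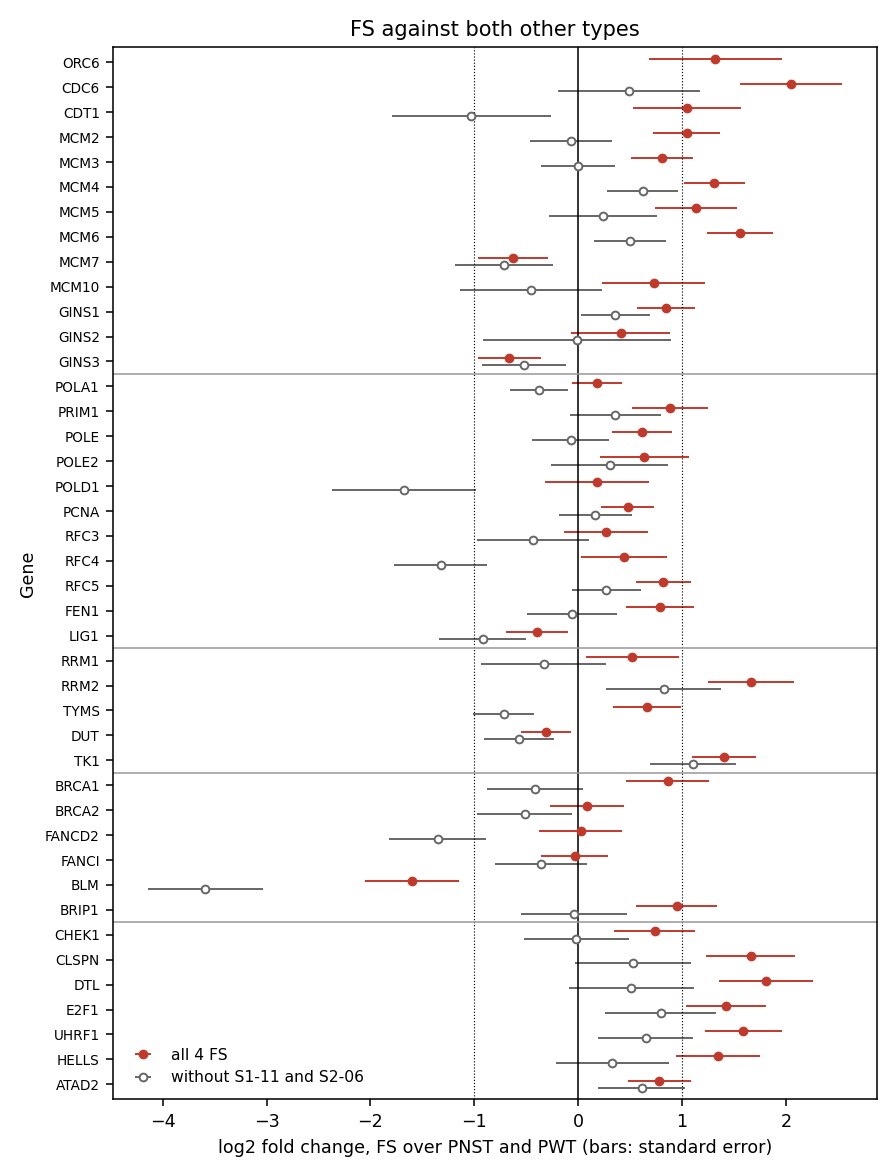
Log2 fold change of each member tested in FS over PNST and PWT, with all 4 FS (filled) and without S1-11 and S2-06 (open). Bars are standard errors, dotted lines mark a log2 fold change of 1 in either direction and horizontal lines part the roles. Most filled points lie to the right of 0, while the open points scatter on both sides of it around a median of -0.04. S1-11 and S2-06 were left out as the FS highest for these members.

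Among the licensing and helicase genes, *MCM6*, a subunit of the helicase, stood at 231 CPM in S2-06, 136 in S1-11, 61.0 in S1-02 and 55.2 in S1-12. In PNST its lowest, median and highest values were 24.6, 32.2 and 44.3 CPM, and in PWT they were 33.9, 46.1 and 80.0 CPM. All 4 FS were above every PNST, while S2-11, a PWT, exceeded 2 of the FS. *MCM6* was higher in FS by 1.56 on the log2 scale (standard error 0.31, adjusted p = 0.00403 by edgeR), and this call held in 26 of 28 alternatives. The exceptions were the fit with the mitotic count as a term and the fit without S1-11 and S2-06.

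*MCM4*, another subunit of the same ring, stood at 196 CPM in S2-06, 93.9 in S1-12, 82.8 in S1-11 and 35.1 in S1-02. In PNST it ranged from 28.0 to 51.0 CPM (median 42.2), and in PWT from 25.6 to 52.3 CPM (median 43.6). Thus 3 FS were above all other tumors and S1-02 was within their range. *MCM4* was higher in FS by 1.31 (standard error 0.29, adjusted p = 0.00771 by edgeR). The call was lost without S2-06.

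The other calls in this role were *CDC6*, which loads the helicase (log2 fold change 2.05, standard error 0.49), and *MCM2*, a further subunit (1.05, standard error 0.33). *CDC6* rested on 196 counts over all tumors, and its call was lost without S2-06. *MCM2* lay next to the threshold on the fold change, was lost in 17 of 28 alternatives and turned to -0.07 without S1-11 and S2-06. *MCM5* (1.14), *MCM3* (0.81) and the GINS subunit *GINS1* (0.85) were not called, with adjusted p-values of 0.0722, 0.0925 and 0.0568 by edgeR.

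*MCM7*, though part of the same helicase, ran the other way. It stood at 63.6 CPM in S1-11, 55.2 in S1-12, 32.8 in S2-06 and 32.3 in S1-02. In PNST it ranged from 58.1 to 116 CPM (median 84.8), and in PWT from 22.6 to 101 CPM (median 52.2). S2-06, which was highest for *MCM6* and *MCM4*, thus held one of the lowest levels of *MCM7*, and the types overlapped. The log2 fold change in FS was -0.62 (standard error 0.34) and did not pass the test (adjusted p = 0.263 by edgeR). In the reference table of another assembly, *MCM7* overlaps *AP4M1* and 3 microRNA genes, and whether reads were counted by strand is not given in the sources used here. The part of such overlaps in its counts was not tested.

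The fork genes had a median log2 fold change of 0.48 in FS, and 10 of 11 were above 0. *RFC5*, a subunit of the clamp loader, stood at 46.1 CPM in S2-06, 25.2 in S1-11, 20.4 in S1-02 and 16.6 in S1-12. It ranged from 9.96 to 21.3 CPM in PNST (median 15.8) and from 11.2 to 20.2 CPM in PWT (median 15.4). Only S2-06 and S1-11 exceeded every other tumor. Its log2 fold change of 0.82 (standard error 0.26) fell short of the threshold (adjusted p = 0.0531 by edgeR).

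*FEN1*, the flap endonuclease that trims lagging-strand fragments, stood at 25.2 CPM in S2-06, 19.2 in S1-11, 9.68 in S1-02 and 7.37 in S1-12. It ranged from 8.14 to 13.4 CPM in PNST (median 9.37) and from 4.44 to 13.7 CPM in PWT (median 8.28). Again S2-06 and S1-11 were above all others and the remaining FS were among them. It differed by 0.79 on the log2 scale (standard error 0.33) and was not called (adjusted p = 0.133 by edgeR). *PCNA*, the clamp itself, was at 46.04 to 73.6 CPM in FS, 21.0 to 60.5 CPM in PNST and 33.6 to 63.6 CPM in PWT, and its log2 fold change of 0.48 did not pass the test (adjusted p = 0.252 by edgeR).

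Of the genes that supply nucleotides, *TK1*, the thymidine kinase of the salvage pathway, stood at 30.7 CPM in S1-11, 18.4 in S1-12, 15.68 in S2-06 and 14.3 in S1-02. In PNST it ranged from 4.48 to 8.76 CPM (median 6.85), and in PWT from 4.18 to 13.5 CPM (median 7.38). *TK1* was the only member for which all 4 FS lay above all 12 other tumors, a pattern shown by 1.56% of the genes tested. It was higher in FS by 1.40 (standard error 0.31, adjusted p = 0.00689 by edgeR). The call was lost without S1-11, and without S1-11 and S2-06 the estimate was 1.11.

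*RRM2*, the regulated subunit of ribonucleotide reductase, stood at 102 CPM in S1-11, 75.5 in S2-06, 37.3 in S1-02 and 31.3 in S1-12. In PNST it ranged from 7.61 to 14.8 CPM (median 10.6), and in PWT from 16.96 to 50.1 CPM (median 29.8). The PNST, by molecular identity, lay below all other tumors, and FS and PWT overlapped. It was higher in FS by 1.67 (standard error 0.42, adjusted p = 0.0156 by edgeR), a call lost without S1-11. The log2 fold changes of *RRM1*, the other subunit (0.52), *TYMS*, which makes thymidylate (0.66), and *DUT*, which removes dUTP (-0.31), did not pass the test.

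The recombination and crosslink repair genes did not move as one in FS, with a median log2 fold change of 0.06. *BRCA1*, which acts in homologous recombination, stood at 90.8 CPM in S2-06, 26.9 in S1-11, 18.4 in S1-12 and 13.6 in S1-02. It ranged from 11.4 to 20.2 CPM in PNST (median 16.7) and from 13.9 to 36.8 CPM in PWT (median 25.8). Apart from S2-06, its highest levels were thus in PWT, of which 5 of 6 were S2 tumors like S2-06. The log2 fold change of *BRCA1* in PWT was 0.08 in the main fit and -0.57 with the prefix as a term (standard error 0.38). *BRIP1*, a helicase that binds BRCA1, stood at 20.9 CPM in S2-06, 7.68 in S1-11, 7.37 in S1-12 and 3.58 in S1-02. It ranged from 2.51 to 6.73 CPM in PNST (median 4.34) and from 4.92 to 8.23 CPM in PWT (median 5.69). Except in S2-06, these were low counts in overlapping ranges. Neither gene was called in FS (adjusted p = 0.182 for *BRCA1* and 0.129 for *BRIP1* by edgeR).

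*BLM*, the RecQ helicase that dissolves recombination intermediates, was the only member called lower in FS. It stood at 1.84 CPM in S1-12, which is a single count, 3.23 in S1-02, 18.5 in S2-06 and 19.7 in S1-11. In PNST it ranged from 19.6 to 43.7 CPM (median 37.9), and in PWT from 20.6 to 59.6 CPM (median 33.8). S1-02 and S1-12 were far below every other tumor, and S1-11 and S2-06 were at the lower edge of the other types. *BLM* differed by -1.60 on the log2 scale (standard error 0.45, with an adjusted p of 0.0290 by edgeR). The call was lost without S1-02, without S1-12, with the mitotic count as a term, with the histological groups, and without S1-10 and S2-08, but held without S1-11 and S2-06, at -3.59.

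In the checkpoint, regulator and chromatin role, 5 of 7 members were called higher in FS, with a median log2 fold change of 1.42. *DTL*, the adaptor that marks CDT1 for destruction in S phase, stood at 102 CPM in S2-06, 38.4 in S1-11, 29.5 in S1-12 and 9.68 in S1-02. It ranged from 3.99 to 13.4 CPM in PNST (median 9.34) and from 7.67 to 32.9 CPM in PWT (median 14.4). S2-06 and S1-11 were above all others and S1-02 was among the PNST. *DTL* was higher in FS by 1.81 (standard error 0.46, adjusted p = 0.0161 by edgeR), a call lost without S2-06.

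*UHRF1*, which guides maintenance of DNA methylation, was higher by 1.59 (standard error 0.37), and S1-11 rather than S2-06 held its highest level (89.9 against 39.4 CPM). *E2F1*, a transcription factor of the G1/S switch, was higher by 1.42 (standard error 0.38) and was also highest in S1-11. Both calls were lost without S1-11. *CLSPN*, the claspin adaptor of the replication checkpoint (1.66), was called with all FS but not without S2-06. *HELLS*, a chromatin remodeler (1.35), was called with all FS and lost in 10 of 27 alternatives. *CHEK1*, the checkpoint kinase that claspin helps to activate, stood at 25.2 CPM in S2-06, 11.1 in S1-12, 8.77 in S1-11 and 5.02 in S1-02. It ranged from 2.92 to 8.33 CPM in PNST (median 5.97) and from 4.92 to 12.5 CPM in PWT (median 9.42). S2-06 alone was above all others, and *CHEK1* was not called (log2 fold change 0.74, adjusted p = 0.248 by edgeR).

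**Figure D4:**
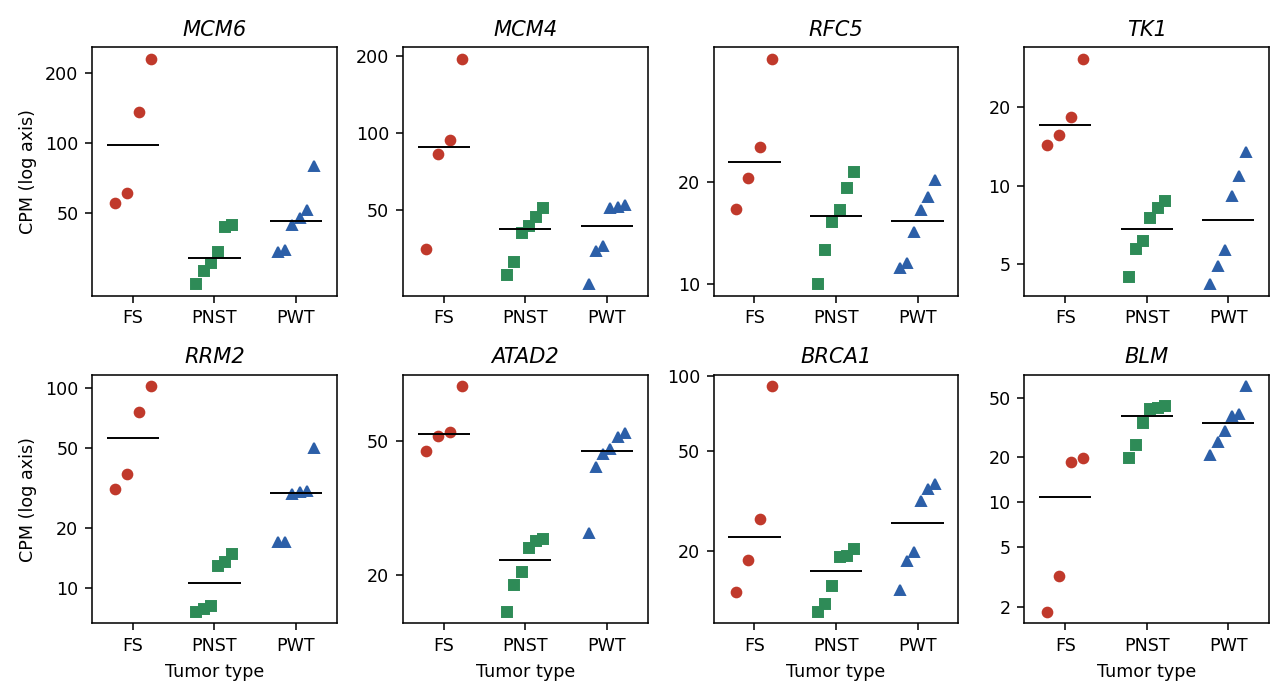
CPM on a log axis (y) for 8 members by tumor type (x), each point 1 tumor, sorted within a type, with medians as black lines. *TK1* separates the 4 FS from all others, *RRM2* and *ATAD2* place the 6 PNST below all others, and *BLM* falls to 1.84 and 3.23 CPM in 2 FS.

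In PNST, the log2 fold change was above 0 for 5 of the 42 members, and no member was called by edgeR. In edgeR's test of PNST against FS and PWT, 0 of 42 members were higher and 0 lower, as for all genes (0% and 0% called). At an unadjusted p under 0.05, 1 member was higher (6.57% of all genes) and 12 were lower (9.10% of all genes). DESeq2's test called 2 members lower, *ATAD2* and *RRM2*, and 0 higher, with 1.23% of all genes lower and 0.558% higher. The median log2 fold change was -0.51 for the members and -0.06 for all genes. With the mitotic count as a term, 3 members were lower at an unadjusted p under 0.05, as were 5.09% of all genes.

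*ATAD2*, a bromodomain ATPase found on newly copied chromatin, stood at 72.9 CPM in S1-11, 53.4 in S1-12, 51.8 in S2-06 and 47.0 in S1-02. In PNST it ranged from 15.6 to 25.6 CPM (median 22.3), and in PWT from 26.8 to 53.1 CPM (median 46.8). *ATAD2* and *RRM2* were the members for which all 6 PNST lay below the 10 other tumors, a pattern shown by 0.0974% of the genes tested. S1-10, a PWT by histology, was the lowest of all tumors for both genes (15.6 and 7.61 CPM). The pattern thus depends on molecular identity, which was assigned from expression, and is lost with the histological groups. The log2 fold change in PNST was -1.18 for *ATAD2* (standard error 0.21) and -1.95 for *RRM2* (standard error 0.39), each with an adjusted p of 0.0950 by edgeR. Over the alternatives, the adjusted p-values of both ranged up to 0.617, and both were called in the fit with 3 groups. Without S1-07, the PWT with the lowest *ATAD2*, *ATAD2* was called as well.

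Summed over the 7 checkpoint, regulator and chromatin genes, PNST lay between 59.1 and 86.7 CPM, PWT between 87.6 and 161 CPM and FS between 119 and 318 CPM. For the 15 licensing and helicase genes, in contrast, the sums were 236 to 349 CPM in PNST and 177 to 363 CPM in PWT, with FS at 247 to 802 CPM. The highest PNST sum was thus just under the lowest PWT sum in the first role (86.7 and 87.6 CPM), and the types overlapped in the second. S1-10, a PWT by histology, had the lowest sum in the first role (59.1 CPM). The sums were not tested. Within the S1 tumors the median difference of the members between PNST and the others was -0.34 (5 against 4 tumors), and within the S2 tumors, with 1 PNST, it was -0.26.

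In PWT, 0 of 42 members were called higher and 0 lower, while 1.41% and 0.714% of all genes were. At an unadjusted p under 0.05 there was 1 member in each direction, where all genes had 10.5% and 11.8%. Without S1-11 and S2-06, these counts were 7 higher and 0 lower of 41, beside 10.9% and 11.4% of all genes. With all tumors, they were *BRCA2*, which acts in homologous recombination, higher by 0.66, and *E2F1*, lower by 1.00 on the log2 scale. DESeq2's test called 0 in either direction. *BRCA2* stood at 51.3 to 123 CPM in PWT (median 87.8), against 35.8 to 65.6 CPM in PNST (median 42.9), and in FS at 134 CPM in S2-06, 55.9 in S1-11, 49.7 in S1-12 and 44.5 in S1-02. *BRCA2* divided the tumors by prefix, with the 9 S1 tumors at 35.8 to 55.9 CPM and the 7 S2 tumors at 65.6 to 134 CPM. *FANCD2*, in the same repair role, did so too (9.21 to 24.1 CPM in S1 and 28.7 to 62.7 CPM in S2). Summed over the 8 recombination and crosslink repair genes, the S1 tumors lay at 100 to 161 CPM and the S2 tumors at 170 to 395 CPM. The share of all genes tested that split by prefix in this way was not counted. Whether the split is particular to repair genes is thus not known. Of the 6 PWT, 5 were S2 tumors. With the prefix as a term, the log2 fold change of *BRCA2* in PWT was 0.04 (adjusted p = 0.97 by edgeR). The median difference of the members was -0.60 within S2, where the others were S2-06 and 1 PNST, and 0.11 within S1, with 1 PWT.

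The members were next set against the mitotic count of each tumor, a pathologist's count of dividing cells in the same tumors' sections, taken as a covariate from the study's sample information. The second of 2 readings was used. By it, FS held ranks 11 to 16 of the 16 tumors, PNST ranks 1.5 to 13 and PWT ranks 1.5 to 14, so that tumor type and mitotic count were partly confounded. By the first reading, FS held ranks 6.5 to 16, PNST 1.5 to 9 and PWT 1.5 to 14. In edgeR's fit of a slope on log2(mitotic count + 1), 0 of 42 members passed an adjusted p of 0.05 in either direction, as for all genes (0% rising and 0% falling). At an unadjusted p under 0.05, 18 members rose (7.07% of all genes) and 1 fell (3.08% of all genes). The median slope, per unit of log2(mitotic count + 1), was 0.17 for the members and 0.01 for all genes. DESeq2's test called 2 members rising, *MCM6* and *RFC5*, and 0 falling, with 1.31% of all genes rising and 0.175% falling.

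By role, the members at an unadjusted p under 0.05 were 6 of 7 checkpoint, regulator and chromatin genes, 3 of 5 nucleotide genes, 5 of 13 licensing genes, 2 of 11 fork genes and, among repair genes, 2 rising and 1 falling of 6. The smallest unadjusted p-values belonged to *MCM6* (slope 0.36, standard error 0.09, adjusted p = 0.190), *MCM4* (0.30, adjusted p = 0.205), *RFC5* (0.24, adjusted p = 0.211) and *DTL* (0.41, adjusted p = 0.238). The number of members rising at an unadjusted p under 0.05 fell to 3 without S2-06, to 3 without the 2 tumors farthest from the median count (S2-06 and S1-12), and to 0 with tumor type as a term of the model. Of all genes, 4.53%, 3.19% and 1.14% rose at that level in these fits. *MCM6* and *DTL* were called without S1-10.

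In ranks, the median rho between a member's level and the mitotic count was 0.22, and 35 of 42 members were above 0. For all genes tested the median was -0.02, with 47.8% above 0. No member passed Benjamini-Hochberg adjustment over the 15408 genes, and 9 of 42 had a permutation p under 0.05, as had 9.24% of all genes. The median rho of the members was 0.12 over 14 tumors, without S2-06 and S1-12. It was 0.20 among the 9 S1 tumors, 0.41 among the 7 S2 tumors, -0.15 among the 6 PNST and 0 among the 6 PWT. FS, with 4 tumors, were too few for a value of their own.

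*RFC5* had the highest rho of the members, 0.64 (permutation p = 0.0093, adjusted 0.517), with Pearson's r of 0.69 (permutation p = 0.0021, adjusted 0.444). Without the farthest tumors its rho was 0.59 and its r 0.62, and its rho was 0.80 within S1 and 0.56 within S2. It was 0.58 among the PNST and 0.58 among the PWT. The rho of *RFC5* thus had the same sign inside both types and both prefixes. *MCM6* had a rho of 0.51, but -0.21 among the PNST and 0.12 among the PWT.

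*BLM* had the lowest rho, -0.68 (permutation p = 0.00431, adjusted 0.517), with r of -0.53 (permutation p = 0.0315, adjusted 0.510). Without the farthest tumors its rho was -0.55 and its r -0.42, and its rho was -0.68 within S1 and -0.68 within S2. Among the PNST it was -0.33 and among the PWT -0.78. Others below 0 included *MCM7* (-0.50), *LIG1*, the ligase that seals fragments (-0.44), *GINS3* (-0.41) and *POLD1*, the catalytic subunit of polymerase delta (-0.30).

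Summarized per tumor as a mean z-score, the members had a rho of only 0.26 with the mitotic count over the 16 tumors. S2-08, tied for the lowest rank, had a mean z-score of 0.356, while S1-12, which ranked 15, had -0.379. S2-06 combined the highest rank with the highest score, 1.72. The members' mean z-score had a rho of -0.10 with the total on genes.

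**Figure D5:**
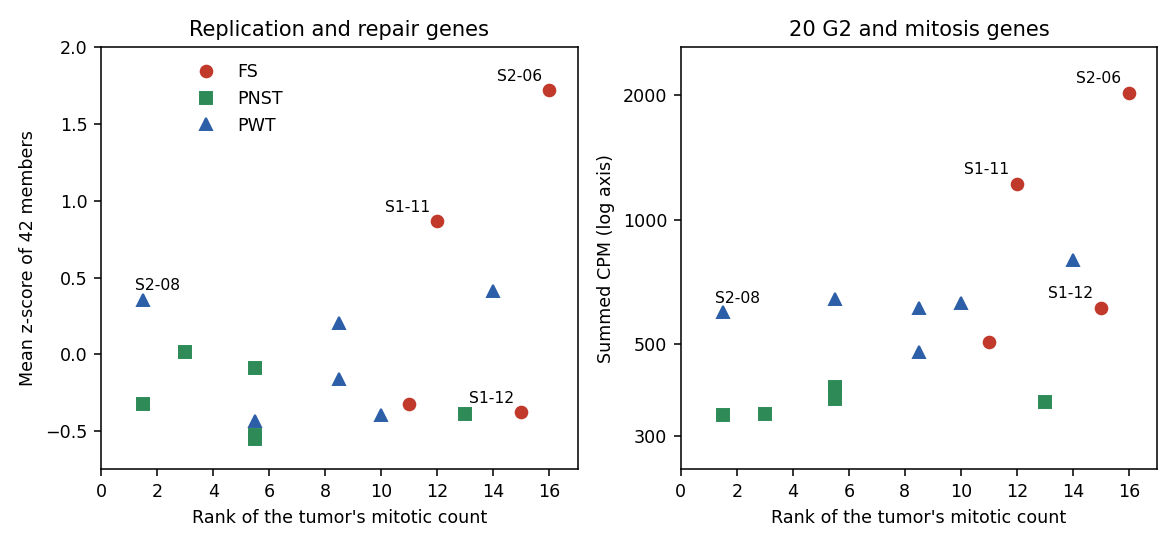
Left, the mean z-score of the 42 members tested, and right, the summed CPM of 20 G2 and mitosis genes on a log axis, against the rank of the tumor's mitotic count (x). Points are tumors. S2-08 and S1-12 depart from the trend on the left, and the rho is 0.26 on the left and 0.60 on the right.

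Tumor grade, which counts mitoses among its criteria and so is not independent of them, gave 0 members called in either direction in edgeR's fit of a slope per grade, as for all genes (0% and 0%). At an unadjusted p under 0.05, 23 members rose with grade (3.45% of all genes) and 0 fell (2.28% of all genes). DESeq2's test called 0 in either direction. The median slope per grade was 0.52 for the members and 0.01 for all genes. *MCM6* (0.88, standard error 0.22) and *DTL* (1.09, standard error 0.27) had the smallest p-values, each with an adjusted p of 0.539 by edgeR. Grade 3 was held by S2-06 and S2-11 alone. Without S2-06, the number of members rising at an unadjusted p under 0.05 was 3, beside 2.05% of all genes.

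Other genes of replication and of the cell cycle were counted from lists of their own. Among 30 further replication genes tested, 1 was higher in FS, *CDC7*, a kinase that fires origins (log2 fold change 1.59), and 1 was lower, *POLE4*, a small subunit of polymerase epsilon (-1.17). *CDC7* stood at 138 CPM in S2-06, 27.4 in S1-11, 15.1 in S1-02 and 11.1 in S1-12, so that its call leaned on the same tumor as the members. Of 10 further S-phase repair genes, 0 were called in FS by edgeR or DESeq2, with 1 higher and 0 lower at an unadjusted p under 0.05. This was *PCLAF*, a PCNA-binding factor (1.23). The median log2 fold changes of these lists were 0.20 and 0.21, beside 0.78 for the members.

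Of 20 G2 and mitosis genes, most of which act after replication, 12 were called higher in FS and 0 lower by edgeR. These counts were 13 and 0 by DESeq2, and 17 and 0 at an unadjusted p under 0.05 by edgeR. The median log2 fold change of the list was 1.45. Without S1-11 and S2-06, 0 of 19 were called higher (2 at an unadjusted p under 0.05) and 1 was lower. *CDK1*, the kinase that drives entry into mitosis, stood at 181 CPM in S2-06, 38.4 in S1-11, 27.6 in S1-12 and 25.5 in S1-02. It ranged from 4.22 to 8.80 CPM in PNST and from 5.70 to 26.2 CPM in PWT. It was higher in FS by 2.72 (standard error 0.49, adjusted p = 0.00180 by edgeR), with S2-11 the only other tumor inside the range of the FS. The summed list was 338 to 395 CPM in PNST, 480 to 797 CPM in PWT and 507 to 2022 CPM in FS. By molecular identity, all PNST thus lay below all other tumors in this sum. Its rho with the mitotic count was 0.60 over the 16 tumors, against 0.26 for the members' mean z-score, and its rho with that score was 0.43. A sum and a mean z-score weigh genes differently. The members' percent of gene counts, which is a sum, had a rho of 0.30 with the mitotic count. Whether these values of rho differ was not tested.

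Markers of other cell types were summed in the same tumors. The keratinocyte list lay between 902 and 1518 CPM in S1-02, S1-04, S1-05, S1-12 and S2-03, and between 4.18 and 113 CPM in the other 11 tumors. It was 21.4 CPM in S2-06 and 113 CPM in S1-11. The lymphocyte list was 41.8 CPM in S2-06 and 30.7 CPM in S1-11, in a range of 26.2 to 158 CPM. The fibroblast list was highest in S1-11 (98100 CPM) and 17310 CPM in S2-06, and 3 of its 6 genes were called higher in FS by edgeR (*COL1A1*, *COL3A1* and *LUM*). The perivascular list was also highest in S1-11, and 2 of its 7 genes were called higher in FS (*ACTA2* and *MCAM*). The part of these cell types in the members' FS values was not tested. Over the 16 tumors, the members' mean z-score had a rho of -0.46 with the lymphocyte list, -0.29 with the macrophage list, -0.23 with the keratinocyte list, -0.20 with the endothelial list, -0.02 with the fibroblast list and 0.09 with the perivascular list. The keratinocyte list was high in both FS with low scores, S1-02 and S1-12, and its part in their lower values was not tested.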

How the data were processed

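Thick sections of each of 16 fixed tumors were extracted with an RNeasy FFPE kit, ribosomal RNA was depleted, and libraries were made with the Ion Total RNA-Seq Kit V2. The authors deposited unnormalized counts of reads per gene from HTSeq, in 34 columns of runs. Runs of a tumor were summed. Only 22.9% to 30.6% of the listed reads were on genes, and the 5 summary entries that name no gene were left out. The strand setting of the counting is not given in the sources used here.

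The 46 members, their roles, the other lists and the tests were chosen with earlier results of these data known. The 15408 genes that reached 10 counts in 4 or more tumors were kept. edgeR 4.0.16 (TMM, quasi-likelihood test) compared each type with both others pooled, without covariates, and called genes at a Benjamini-Hochberg adjusted p under 0.05 with a log2 fold change past 1 in either direction. Slopes on log2(mitotic count + 1), from the second of 2 readings, and on grade, with the midpoint where 2 grades were given, used the same fit. All 3 comparisons of types share the same 16 tumors. Correlations used log2(CPM + 1) and 100000 two-sided permutations. P-values measure the spread between tumors. DESeq2 1.42.0 was an alternative. Simulated counts had 200 genes changed by 2 on the log2 scale. There the edgeR test recovered 82% in the FS comparison, 91% in that of PNST and 92.5% in that of PWT. With slopes of 0.6 on the mitotic count and 1.5 on grade it recovered 92% and 94%. Only genes of higher mean count were changed. Each simulated gene had the same mean in all tumors apart from the planted change, and its spread was taken from within the types. Differences between the types pooled in the real tests were thus absent, so recovery in the real data may be lower. Both slopes exceeded the largest of any member (0.41 for *DTL* and 1.21 for *CDC6*), and the members' median change in FS was 0.78. Recovery at the members' own sizes and counts was thus not measured.

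From the other lists, genes called in a type or with the 2 smallest p of the mitotic slope could be named. Among members, CPM were given in each tumor for the 2 members of each role with the smallest p of the mitotic slope, up to 3 members called per comparison of types, and the members with the highest and lowest rho. *MCM7*, *ATAD2*, *BRCA2* and *PCNA* were added after their values were seen. In the reference table of another assembly, 21 of the 46 members overlap another gene. A check of the nerve sheath identity by its markers is not reported here.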

Additional observations from a re-analysis of the deposited data

Results flagged for a closer look

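Within each type, the highest or lowest tumor was compared with its neighbor by Dixon's test at the 95% level, for 87 groups of values on the members named in the text, the share of counts on the members and the summed lists. Chance alone flags about 1 in 20 groups, and 4 groups were flagged, so these are given as values only. *FEN1* was 13.4 CPM in S1-10 among the PNST, where the others lay between 8.14 and 10.1 CPM. *MCM2* was 33.9 CPM in S2-08 among the PWT, where the others lay between 10.5 and 17.2 CPM. S1-10 and S2-08 are the tumors whose molecular identity differs from their histology. The summed G1/S control genes were 756 CPM in S1-11 among the FS (others 641 to 659 CPM) and 766 CPM in S2-11 among the PWT (others 571 to 613 CPM). No value of S2-06 was flagged. The test has little reach among 4 FS, and S1-11, the next highest in share, shortens the gap that it measures. The lack of a flag therefore does not show that S2-06 was like the other FS.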

How the results depend on the processing

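Alternatives were set beside each result with 1 choice changed at a time. Of members called higher in FS, 11 in the main fit, 6 of the 28 testable were called with every tumor thinned to the smallest total, 3 with histological groups, 0 with the mitotic count as a term and 0 without S1-11 and S2-06 (chosen after seeing the data, as the FS highest for the members), and 5 to 14 when 1 tumor was left out. Of all genes, 5.16% were called higher after thinning, 1.24% with histological groups, 2.52% with the mitotic count and 2.4% without S1-11 and S2-06. The 1 member called lower became 0 with histological groups, without S1-10 and S2-08, and with the mitotic count as a term, and ranged from 0 to 1 with 1 tumor left out. The median log2 fold change in FS was -0.0391 without S1-11 and S2-06, where *MCM2* was -0.067, and 0.31 to 0.965 with 1 tumor left out. For PNST, DESeq2 and the fit with 3 groups each called 2 members lower, and 0 to 1 were called with 1 tumor left out. Members lower in PNST at an unadjusted p under 0.05, 12 in the main fit, were 7 with histological groups, 3 with the mitotic count as a term and 5 without S1-11 and S2-06. Of all genes, 4.89%, 5.09% and 9.14% were lower at that level in these fits. The median in PWT moved from -0.19 to 0.271 without S1-11 and S2-06. On the mitotic count, DESeq2 called 2 members and the first of 2 readings of the count 1, and 0 to 2 were called with 1 tumor left out. Members rising at an unadjusted p under 0.05, 18 in the main fit, were 10 after thinning, 0 with tumor type as a term, 3 without the farthest tumors and 0 without S1-11 and S2-06, and 3 to 22 with 1 tumor left out. Of all genes, 6.8% rose after thinning, 1.14% with tumor type as a term, 3.19% without the farthest tumors and 3.35% without S1-11 and S2-06. With grade, 23 became 9 after thinning, 4 with tumor type as a term, where the slope of *BLM* turned to 0.029, and 2 without S1-11 and S2-06, and 3 to 25 with 1 tumor left out. Of all genes, 2.8% rose with grade after thinning, 2.41% with tumor type as a term and 2.02% without S1-11 and S2-06. The cause of these changes was not tested, except that thinning leaves fewer members to test. RLE and upper quartile factors, no filter, the prefix as a term and summing S1-04 with S1-05 kept each of these counts of members within 1.5 times. The prefix term did move estimates in PWT, downward for most members. *MCM4* went from -0.62 to -1.26 and *BRCA2* from 0.66 to 0.04, while *MCM7* rose from -0.29 to 0.03. Over all genes, that term took the PWT calls from 1.41% higher and 0.714% lower to 0% and 0%. No paired analysis was possible because replicate numbers were given in accession order and no tumor of one type is tied to a tumor of another. Depth limited the 4 members that were not tested and the low values in S1-12 and S2-04.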

Other observations

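Other genes that control the G1/S switch, apart from the member *E2F1*, were split in FS. Of 18 tested, 6 were higher and 2 lower than in the other tumors by edgeR's test. Without S1-11 and S2-06, 1 of 16 was higher (*CDK6*) and 0 were lower (3 and 1 at an unadjusted p under 0.05). Higher were *E2F7* (log2 fold change 2.06, adjusted p = 0.000724), *E2F8* (2.11), *E2F3* (1.83), *CDK6* (2.22), *CDK2* (1.02) and *CDC25A* (1.63), which are E2F factors, G1 and S-phase kinases and an activating phosphatase. Lower were *RBL2*, a pocket protein related to RB (-1.02), and *CDKN1C*, an inhibitor of cyclin-dependent kinases (-1.86). *E2F7* stood at 54.6 CPM in S2-06, 36.7 in S1-11, 25.8 in S1-12 and 15.1 in S1-02, all above the highest of the other types (12.3 CPM). *CDK6* departed from the order seen in the members, with its highest level, 93.6 CPM, in S1-02.

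Repair genes that act outside S phase had a median log2 fold change of -0.21 in FS over 27 genes tested. By edgeR, 0 were called higher and 1 lower (0 and 5 at an unadjusted p under 0.05), and by DESeq2 0 and 2. The call by edgeR was *XRCC4*, a scaffold of non-homologous end joining, which stood at 11.1 to 16.5 CPM in FS, 24.5 to 36.2 CPM in PNST and 35.9 to 77.1 CPM in PWT. It was lower in FS by 1.70 on the log2 scale (adjusted p = 0.00225 by edgeR) and higher in PWT by 1.14 (adjusted p = 0.0399), in comparisons that share the same tumors. The PWT call was lost with the prefix as a term and with histological groups. In both of these fits, 0% of all genes were called in PWT in either direction. *MGMT*, which reverses alkylation damage, was at 12.9 to 22.9 CPM in PNST and 1.90 to 7.37 CPM in FS, and was not called in any type by edgeR. DESeq2 called it higher in PNST and lower in FS.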
